A study of Rattus norvegicus with 14 samples.

Results

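Fth1 and Nfe2l2 were examined across the 14 Tn5Prime libraries of the series. All TSSs carrying either gene symbol were taken, which gave 18 of the 4993 listed TSSs, 16 for Fth1 and 2 for Nfe2l2. Both genes were picked with their RPM values in these libraries already known, so every difference given for them is a description without a p-value. The tests over all TSSs include theirs, but nothing is read from whether they were called. Tn5Prime reads start at the 5′ end of captured transcripts, so each value counts the 5′ ends at a TSS, scaled by the authors to the library's total reads (RPM). The listed TSSs are those the authors linked to promoters marked by H3K4me3 and bound by SOX10 in sciatic nerve.

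The libraries came from 5 groups of rat samples. Sciatic nerve libraries were made from 2 independent nerves of wild-type adult rats aged 6 to 9 months. Primary Schwann cells (wild type) gave 3 vehicle-treated control libraries and 3 libraries of cells treated with 250 μM CPT-cAMP, a cell-permeable cAMP analogue that drives Schwann cell differentiation. All primary cells had been expanded with 10% FBS, 10 nM neuregulin and 2 μM forskolin, then deprived of both factors and moved to 5% FBS. Both arms spent 4 days in 5% FBS, the last 3 of them with CPT-cAMP in the treated arm. S16 is an immortalized rat Schwann cell line with features of myelinating cells, and was grown in 10% FBS. It gave 2 unmodified parental libraries and 4 ΔSOX10 libraries, each from a separate clone edited by CRISPR/Cas9 at Sox10, and labelled 1-1, 1-2, 2-1 and 2-2. Every ΔSOX10 library is therefore 1 clone, and the labels name no clone for the parental cells. The clones also went through plasmid transfection, puromycin selection, sorting and expansion from single cells, whereas the parental cells were unmodified. Loss of SOX10 and these steps cannot be told apart in the S16 comparison. Nerve and S16 libraries were sequenced on another instrument (HiSeq) than the primary cells (NovaSeq), so instrument and sample type cannot be told apart between those sets. Each library came from its own RNA isolation, but no label ties the primary cell libraries to separate animals, so that the spread among them may be partly technical.

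Fth1 encodes the heavy chain of ferritin, the ferroxidase subunit of the shell in which cells store iron in a non-toxic form. Its translation is classically controlled by iron regulatory proteins, and its transcription is induced by oxidative stress. Nfe2l2 encodes NRF2, a basic leucine zipper transcription factor that is held low by KEAP1-directed degradation. When released, NRF2 pairs with small MAF proteins at antioxidant response elements and induces detoxifying, thioredoxin and heme and iron handling genes, of which ferritin is one. Schwann cells use iron in the energy and lipid metabolism that myelin formation draws on.

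The 14 libraries held between 29895599 and 79940274 reads, and 3 reads, the floor used here, corresponded to between 0.0375 and 0.1 RPM. Sox10 itself was at 42.4 and 48.6 RPM at its main TSS in the nerves and at 77.5 and 90.7 RPM in parental S16 cells, against 0 to 0.114 RPM in the ΔSOX10 clones. Schwann cell markers, of which 8 of 9 were listed, summed to between 10161 and 10318 RPM in parental cells and to between 146 and 400 RPM in the clones. They summed to between 72487 and 73525 RPM in nerve, between 5949 and 6154 RPM in control and between 10558 and 12230 RPM in cAMP-treated primary cells. The median log2 difference over all TSSs tested was 0.02 with cAMP and -0.18 in ΔSOX10 cells, and the latter became -0.05 after TMM scaling.

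The Fth1 TSSs lay on the plus strand of chromosome 1 (rn5), all inside an H3K4me3 peak at chr1:232978110-232981810. The main TSS, defined as the one with the highest mean in nerve, was 31 bp wide at chr1:232979078-232979108. A SOX10 peak at chr1:232978600-232979399 overlapped it together with 4 weaker TSSs, 1 of them 184 bp upstream and 3 of them 37 to 241 bp downstream. The other 11 TSSs began 1409 to 2165 bp downstream of the main TSS, outside the SOX10 peak. The widest of these spanned 140 bp at chr1:232980487-232980626 and 112 bp at chr1:232980884-232980995. RefSeq names 5 Fth1 pseudogenes in rat (GRCr8), and how the authors treated reads that map to several places is not given in the sources used here, so that Fth1 levels are uncertain to that extent.

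The Nfe2l2 TSSs lay on the minus strand of chromosome 3, inside an H3K4me3 peak at chr3:69067304-69070163. The main TSS was 126 bp wide at chr3:69069046-69069171, and the second TSS was 36 bp wide at chr3:69068035-69068070, beginning 1101 bp downstream. The SOX10 peak at chr3:69068200-69068599 lay between them, 447 bp from the main TSS and 130 bp from the downstream TSS. Thus SOX10 binding overlapped the main TSS at Fth1 but neither TSS at Nfe2l2. No rn5 annotation was used here, and exon or intron positions of the downstream TSSs are not given.

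No promoter sequence of Fth1 was available in the sources used here. The 250 bases upstream of the RefSeq start of Nfe2l2 are shown to give the bases before the start of that gene. They run 5′ to 3′ on the minus strand at chr3:81029000-81029249 of GRCr8, a newer build than rn5, and were not aligned with the measured TSSs. Capitals mark GC boxes (GGGCGG on either strand).

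Nfe2l2: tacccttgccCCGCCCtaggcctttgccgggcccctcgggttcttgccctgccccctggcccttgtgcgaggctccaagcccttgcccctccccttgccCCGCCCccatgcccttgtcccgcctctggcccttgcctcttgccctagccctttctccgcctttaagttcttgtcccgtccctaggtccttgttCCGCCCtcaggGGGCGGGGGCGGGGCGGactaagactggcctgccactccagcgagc

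The window held 6 GC box matches, the last of which share bases with each other in a run next to the start, and 30.5% of 33469 RefSeq promoters of the same length held at least 1. Its GC content was 69.2%, against a median of 51.2% over all promoters. No match was present on either strand for the antioxidant response element core TGACNNNGC (10.1% of promoters), the cAMP response element half-site TGACG (18.2%), the SOX monomers ACAAAG (16.3%) and ACAATG (11.1%), TATAAA (12.9%) or CCAAT (34%). These letters say nothing about whether a factor acts there.

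The main Fth1 TSS was the most heavily used listed TSS in nerve. It stood at 42522 and 47480 RPM in the 2 nerves (mean 45001 ± 3506, SD, n = 2) and ranked first of all listed TSSs in both. Control primary cells held 4083, 3652 and 3955 RPM (3897 ± 221, n = 3), and cAMP-treated cells 3688, 3523 and 3454 RPM (3555 ± 120, n = 3), with ranks between 6 and 9. Parental S16 cells held 8397 and 7707 RPM (8052 ± 488, n = 2) and ranked it second in both libraries. The ΔSOX10 clones 1-1, 1-2, 2-1 and 2-2 held 13708, 14022, 13651 and 27307 RPM (17172 ± 6759, n = 4), and clone 2-2 alone ranked it first.

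The order of Fth1 levels was nerve, ΔSOX10, parental, control and cAMP. No library of nerve, ΔSOX10 or parental cells overlapped a neighbouring group in that order, whereas control and cAMP-treated primary cells did overlap. Both nerves lay above every culture library, as at 7.82% of the main TSSs of all 2993 genes. The nerve mean was 5.59 times the parental S16 mean from the same instrument type and 11.5 times the control primary cell mean from the other. Whole nerve holds more than Schwann cells, and in such tissue fewer cells of a type and less RNA per cell cannot be told apart. Macrophages and red blood cell precursors are known for high ferritin. Of 9 macrophage markers, only Csf1r was listed, at 1.07 and 4.82 RPM in nerve, 0 RPM in every primary cell and parental library and at most 0.966 RPM in the clones, and none of 4 red blood cell or 5 endothelial markers was listed. Col1a1 and Pdgfra, the 2 listed of 8 fibroblast and perineurial markers, summed to between 134 and 138 RPM in nerve, 803 to 909 RPM in control cells and 370 to 466 RPM in cAMP-treated cells. They summed to between 2255 and 2829 RPM in parental and between 2971 and 5302 RPM in ΔSOX10 cells. In every control library 1 of the 2 genes was at 0 RPM, so the sum there is that of the other. Only TSSs near promoters marked by H3K4me3 and bound by SOX10 in nerve are listed, so an unlisted marker says nothing about its cells. The part of other cells in these levels was not tested.

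Nfe2l2 took a different order, with nerve lowest. Its main TSS stood at 26.6 and 21.9 RPM in nerve (24.2 ± 3.30, n = 2), from 794 and 840 reads. Control primary cells held 50.8, 41.6 and 37.6 RPM (43.3 ± 6.77, n = 3), and cAMP-treated cells 79.2, 79.3 and 83.1 RPM (80.5 ± 2.26, n = 3). Parental S16 cells held 51.6 and 41.9 RPM (46.8 ± 6.86, n = 2), and the clones 98.9 (1-1), 69.4 (1-2), 121 (2-1) and 117 RPM (2-2), with a mean of 102 ± 23.5 (n = 4).

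Both nerves lay below every culture library at this TSS, as they did at 33.4% of the main TSSs of all 2993 genes. Control and parental cells overlapped each other, as did cAMP-treated and ΔSOX10 cells, and both of the latter lay above both of the former. The control mean was 1.79 times and the parental mean 1.93 times the nerve mean. Per 100 bp of TSS width, the main TSSs gave 145164 RPM for Fth1 and 19.2 RPM for Nfe2l2 in nerve, and 12570 and 34.4 RPM in control cells.

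**Figure D1:**
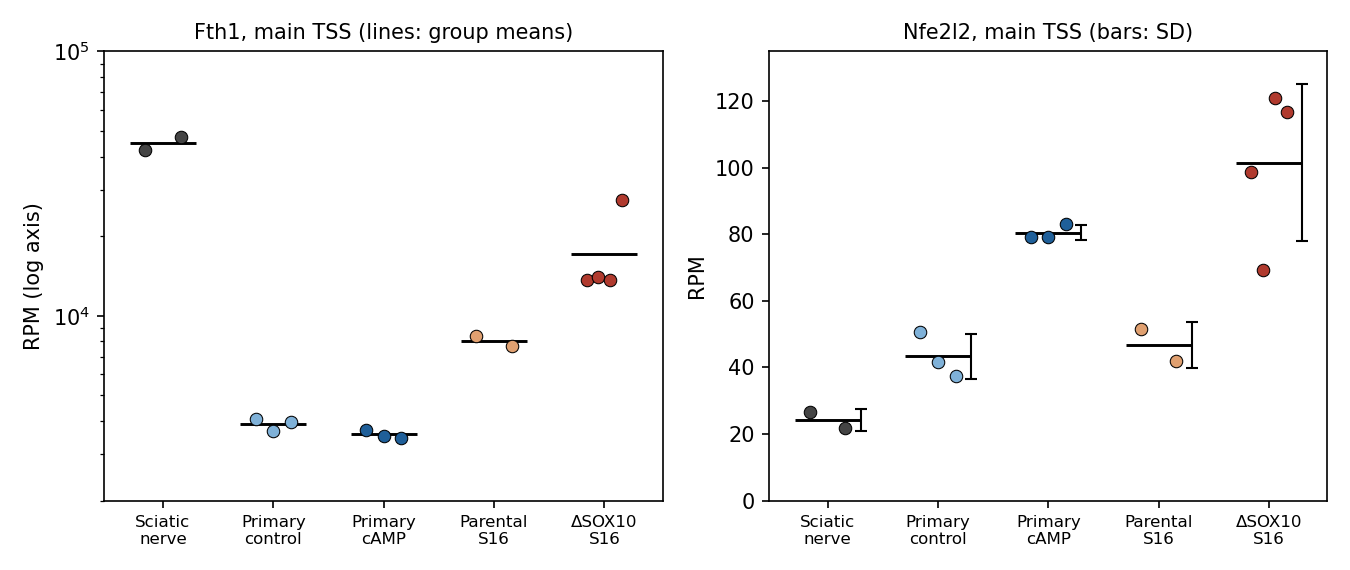
RPM of the main TSS of Fth1 (left, log axis) and Nfe2l2 (right, linear axis, bars are SD) in each of the 14 libraries by group, with the group mean as a line. Nerve is highest for Fth1 (42522 and 47480 RPM) and lowest for Nfe2l2 (26.6 and 21.9 RPM), and clone 2-2 at 27307 RPM stands above the other ΔSOX10 clones for Fth1.

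The comparison of cAMP-treated with control primary cells asked which SOX10-linked TSSs change as Schwann cells differentiate. Fth1 was at nearly the same level in both groups, and Nfe2l2 was higher at its main TSS while its downstream TSS was not detected. On the log2(RPM + 1) scale, the main Fth1 TSS differed by -0.13 (SE 0.0496), with overlapping groups. The main Nfe2l2 TSS differed by 0.89 (SE 0.176), a ratio of means of 1.86, and all 3 cAMP libraries lay above all 3 control libraries. Of the 18 TSSs, 10 passed the filter of more than 1 RPM in at least 2 of the 6 libraries, 8 of Fth1 and both of Nfe2l2. limma called 1 of these 10 higher and 0 lower at an adjusted p under 0.05, where 12.9% of all 4119 TSSs tested were called higher and 11.0% lower. With the genes chosen on these values, nothing is read from these counts.

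The downstream Nfe2l2 TSS stood at 2.49, 1.99 and 1.26 RPM in control cells, from 142, 130 and 65 reads. All 3 cAMP libraries held 0 reads there, although they were sequenced to between 56075871 and 79940274 reads. The control mean of 1.91 ± 0.615 RPM (n = 3) was at least 42.5-fold higher than the mean cAMP floor of 0.045 RPM, set at 3 reads per library. This TSS passed the filter through the control libraries alone, so it could hardly come out higher. Nonoverlapping groups in the lower direction were seen at 17.4% of all TSSs tested, and nothing is read from that share here. This TSS made up 4.67%, 4.56% and 3.25% of Nfe2l2 5′ ends in the control libraries, and the main TSS held 100% in cAMP-treated cells. In nerve it stood at 1.04 and 2.87 RPM (31 and 110 reads), or 3.76% and 11.6% of the gene. Both parental S16 libraries held 0 reads, and among the clones only 1-1 held any, 16 reads or 0.408 RPM.

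Hence the downstream TSS was seen in nerve and control primary cells and was below the floor in cAMP-treated cells and parental S16 cells. PCR copies are counted as separate reads, so these floors cover counting error only.

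**Figure D2:**
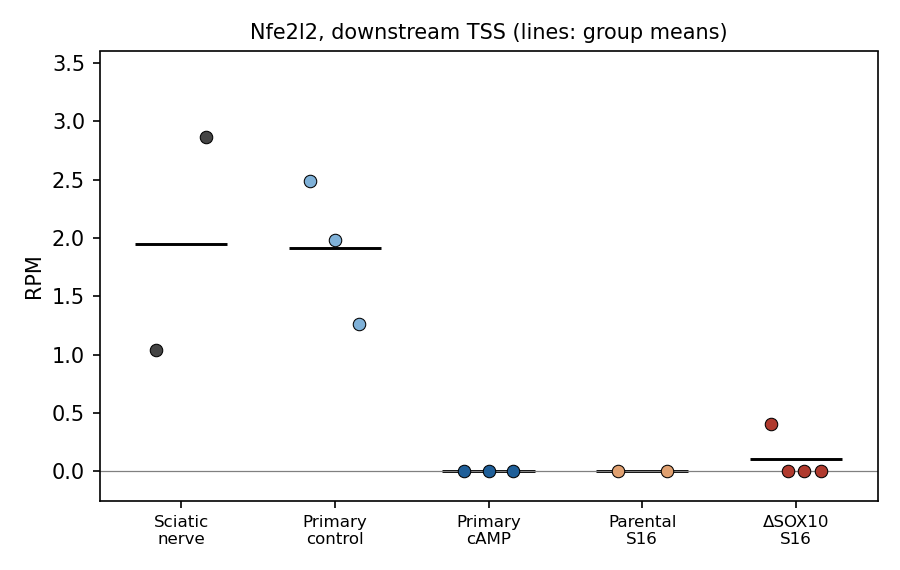
RPM of the downstream Nfe2l2 TSS in each library by group, with the group mean as a line. Control primary cells sit between 1.26 and 2.49 RPM, and the 3 cAMP-treated and 2 parental S16 libraries sit at 0.

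The comparison of ΔSOX10 with parental S16 cells asked which TSSs depend on SOX10. The main TSSs of both genes stood higher in every clone than in parental cells, that of Fth1 with a SOX10 peak over it in nerve. The main Fth1 TSS differed by 1.02 on the log2(RPM + 1) scale (SE 0.303), a ratio of means of 2.13, and all 4 clones lay above both parental libraries. Clone 2-2 was 1.98 times the mean of the other 3, and without it the difference was 0.78, the ratio 1.71 and the spread of the clones 200.2 RPM (SD, n = 3). The main Nfe2l2 TSS differed by 1.08 (SE 0.261), a ratio of 2.17, again with every clone above both parental libraries. Its lowest clone was 1-2, and clone 2-2 was 1.21 times the mean of the other 3.

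The clones labelled 1-1 and 1-2 alone differed from parental cells by 0.79 at Fth1 and 0.82 at Nfe2l2, and those labelled 2-1 and 2-2 by 1.26 and 1.34. TMM scaling moved the differences to 1.17 and 1.23. Of the 18 TSSs, 13 passed the filter, 12 of Fth1 and 1 of Nfe2l2. The log2 differences of those 12 Fth1 TSSs ranged from 0.21 to 1.35. Of these, 6 did not overlap, where 7.69% of all 3875 TSSs tested were higher without overlap. The TSSs 2088 and 2108 bp downstream passed the filter through clones alone, which favoured a positive difference. Parental cells held 0.226 and 0.207 RPM at the TSS 2088 bp downstream, which is among the 6. They held 0.475 and 0.233 RPM at the other. The Fth1 TSSs share transcripts of 1 gene and are not independent. limma called 1 of the 13 higher, the main Nfe2l2 TSS, and 0 lower, where 1.65% of TSSs tested were called higher and 6.55% lower. Again nothing is read from these counts.

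The weaker Fth1 TSSs added little to the gene in any library. The 140 bp TSS 1409 bp downstream of the main TSS stood at 800 and 1043 RPM in nerve, 42.9, 42.4 and 63.1 RPM in control cells, and 52.8, 66.1 and 44.0 RPM in cAMP-treated cells. It stood at 90.4 and 84.2 RPM in parental cells, and at 139, 170, 150 and 310 RPM in clones 1-1, 1-2, 2-1 and 2-2. Thus it was highest in nerve and in clone 2-2 among the clones, like the main TSS. The 112 bp TSS 1806 bp downstream stood at 733 and 1211 RPM in nerve, 35.8 to 40.2 RPM in control cells and 28.2 to 42.4 RPM in cAMP-treated cells. It stood at 49.8 and 63.6 RPM in parental cells and at 82.7, 121, 90.6 and 221 RPM in the clones.

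Closer to the main TSS, the TSS 170 bp downstream stood at 46.1 and 99.1 RPM in nerve and at no more than 6.56 RPM in any culture. The one 241 bp downstream stood at 82.1 and 90.2 RPM in nerve and at 0 to 12.4 RPM in the cultures. Only the TSS 184 bp upstream was absent from all primary cell and parental libraries. It stood at 7.89 and 7.79 RPM in nerve (236 and 299 reads), at 2.79 RPM in clone 2-2, and at 0 in the other 3 clones. Of the 9 remaining downstream TSSs over 1 kb away, the one 2030 bp downstream was the strongest, at 119 and 156 RPM in nerve, and the weakest, 2165 bp downstream, stood at 2.68 and 2.06 RPM.

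**Figure D3:**
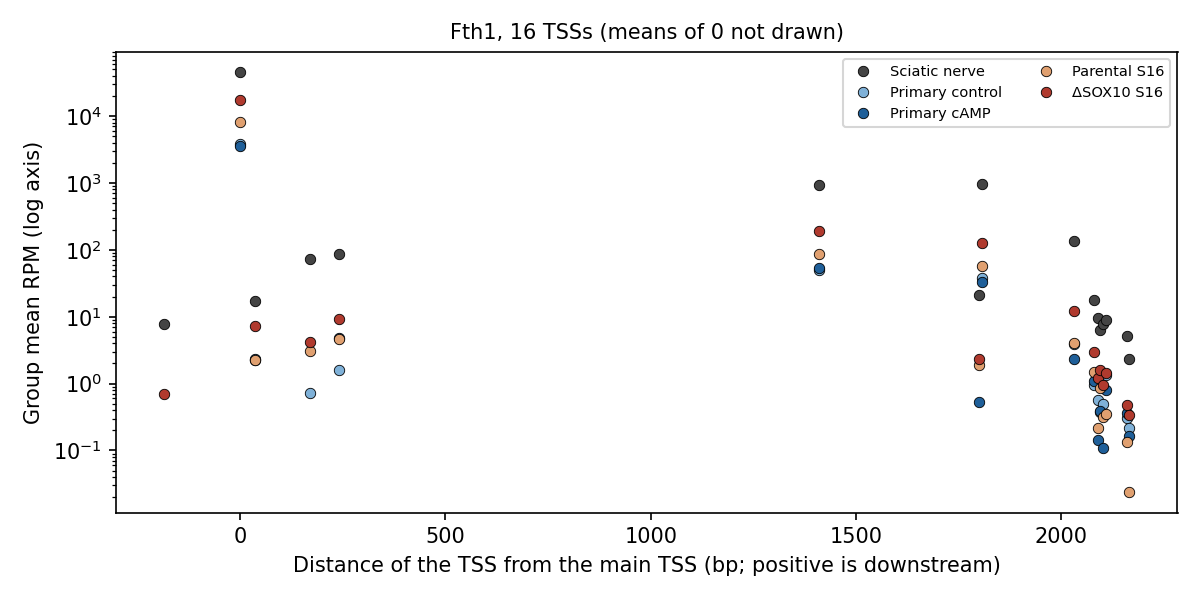
Group mean RPM (log axis) of each of the 16 Fth1 TSSs against its distance from the main TSS in bp, with group means of 0 left out. The main TSS at 0 is highest in every group, followed by the TSSs at 1409 and 1806 bp, and nerve is highest at each position.

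As a share of the gene, the main TSS held 94.6% and 95.8% of Fth1 5′ ends in nerve and between 96.8% and 98.2% in every culture library. The 11 TSSs over 1 kb downstream held 3.89% and 4.96% in nerve, 2.16% to 2.61% in control cells and 2.15% to 2.84% in cAMP-treated cells. They held 1.72% and 2.03% in parental cells and 1.67% to 2.18% in the clones. Both nerves lay above every culture library in this share. RNA integrity is not given in the sources used here, and its part in this share was not tested. Control and cAMP-treated cells overlapped, and so did parental and ΔSOX10 cells, even though the total Fth1 level of the clones (13925 to 27916 RPM) lay above that of the parental cells (7878 and 8553 RPM). Since all Fth1 TSSs lie inside the H3K4me3 peak, as do both Nfe2l2 TSSs, restricting the shares to that peak left them as they were.

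**Figure D4:**
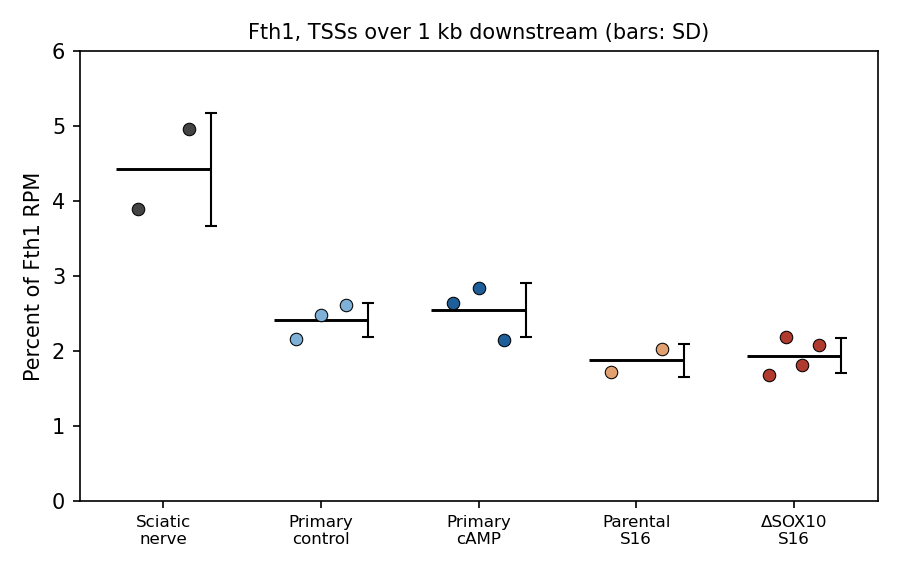
Percent of all Fth1 RPM that fell on the 11 TSSs over 1 kb downstream of the main TSS, by library and group, with group mean (line) and SD (bar). Nerve sits at 3.89% and 4.96%, and the 12 culture libraries between 1.67% and 2.84%.

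Genes of iron handling and of the NRF2 pathway were then followed at the main TSS of each gene, with limma and adjustment over all TSSs tested. The lists were drawn up with earlier results of these data known. Of 97 genes on 4 lists, 23 were among the listed TSSs and 22 were tested, Gsk3b being below the filter. The other genes of the lists were not analysed here, among them those of KEAP1 and the ferritin light chain.

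In cAMP-treated cells, 4 of the 22 rose and 6 fell, where 13.5% of the main TSSs of all 2832 genes tested rose and 13.9% fell. The count that rose was 2 without control replicate 1, 2 or 3 or cAMP replicate 2. NRF2 target genes accounted for most of the falls, with 4 of 7 lower and 1 higher (median log2 difference -0.29, against -0.03 over all genes). Nqo1, a quinone reductase and a standard readout of NRF2, stood at 103, 120 and 141 RPM in control and 82.6, 69.1 and 72.6 RPM in cAMP-treated cells. It fell by 0.68 on the log2 scale (SE 0.152, limma adjusted p = 0.00187). Gstp1, a glutathione transferase, fell by 0.73 (adjusted p = 7.5e-09), and Idh1, a cytosolic NADPH source, fell by 0.85 (adjusted p = 0.000292). Prdx1, a peroxiredoxin, fell by 0.26 (adjusted p = 0.00316). In 1 model of all 14 libraries, Idh1 (limma adjusted p = 0.0784) and Prdx1 (0.166) lost their calls, which left 2 of the 7 targets lower. Taldo1, transaldolase of the pentose phosphate pathway, was the member that rose, from 772, 770 and 763 RPM to 1076, 1016 and 1121 RPM (0.48, adjusted p = 8.5e-06). Nfe2l2 itself was higher in the same libraries, so the level of its main TSS and those of these 4 targets differed in opposite directions.

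Among 9 iron handling genes, 2 rose and 1 fell (median -0.26). Pcbp2, a poly(C)-binding protein that delivers iron, rose by 0.97 (SE 0.321, limma adjusted p = 0.0317), and Iscu, the scaffold of iron-sulfur cluster assembly, rose by 0.90 (SE 0.258, adjusted p = 0.0134). Both calls were weak, holding in 9 of 17 alternatives, and the libraries of Iscu overlapped between groups. Isca1, a later factor of iron-sulfur assembly, fell by 0.61 (adjusted p = 0.011) and lost its call without control replicate 1 (adjusted p = 0.081). Hmox1, heme oxygenase, stood at 13.4, 19.2 and 23.0 RPM in control and 6.48, 21.3 and 17.7 RPM in cAMP-treated cells, with overlap. Of the 2 NRF2 regulators tested, Rbx1, a ubiquitin ligase subunit, fell by 0.31 (adjusted p = 0.0206, held in 12 of 17 alternatives). The small MAF gene Mafk differed by 0.33 (SE 0.283, adjusted p = 0.462). Of 4 other antioxidant enzymes, mitochondrial superoxide dismutase Sod2 rose by 0.42 (adjusted p = 0.0149, held in 14 of 17 alternatives).

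In ΔSOX10 cells, 4 of the 22 genes rose and 2 fell, where 1.99% of the main TSSs of all 2763 genes tested rose and 5.50% fell. Nqo1 stood at 163 and 115 RPM in parental cells and at 796, 809, 770 and 625 RPM in the clones. It rose by 2.44 (SE 0.197, limma adjusted p = 8.6e-05). Hmox1 stood at 134 and 125 RPM in parental cells and at 394, 287, 413 and 364 RPM in the clones, and rose by 1.47 (SE 0.19, adjusted p = 0.00139). Every clone lay above both parental libraries at both genes.

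Slc48a1, a heme transporter, rose from 45.5 and 39.7 RPM to 80.1, 106, 114 and 149 RPM (1.35, limma adjusted p = 0.0115). Txnrd1, thioredoxin reductase, rose from 72.7 and 50.9 RPM to 128, 133, 112 and 173 RPM (1.13, adjusted p = 0.0187). Neither held without parental replicate 2, where the adjusted p was 0.0781 for Slc48a1. Of the 7 NRF2 targets tested, 2 rose and 2 fell (median -0.44, against -0.17 over all genes). Hmox1, which rose, is not among these 7. Taldo1 fell from 925 and 1010 RPM to 323, 227, 283 and 304 RPM (log2 difference -1.77, adjusted p = 0.000375). Ugdh, UDP-glucose dehydrogenase, fell from 188 and 147 RPM to 63.2, 64.5, 45.6 and 92.1 RPM (log2 difference -1.35, adjusted p = 0.0173) and lost its call without parental replicate 1. Prdx1 differed by 0.43 (SE 0.172) and Gstp1 by -0.44 (SE 0.252), both with an adjusted p over the threshold. Of the 2 regulators and 4 other antioxidant enzymes tested, 0 were called by limma. Whether the 2 comparisons differ for any of these genes was not tested.

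**Figure D5:**
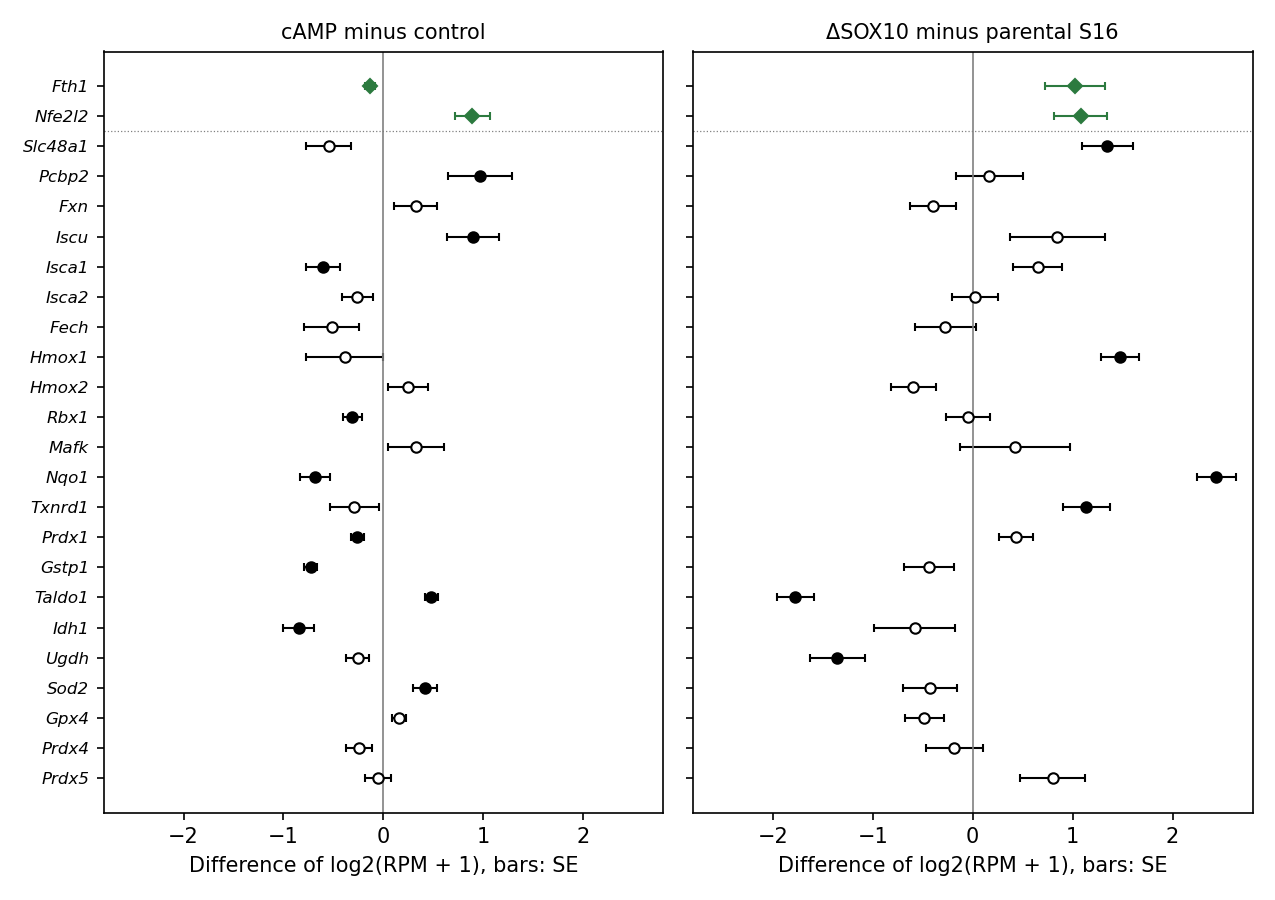
Difference of log2(RPM + 1) with its SE at the main TSS, for cAMP minus control (left) and ΔSOX10 minus parental S16 (right). Diamonds are Fth1 and Nfe2l2, drawn without calls. Circles are 22 genes of the iron and NRF2 lists, filled where limma's adjusted p was under 0.05. Nqo1 lies at -0.68 on the left and 2.44 on the right, and Taldo1 at 0.48 and -1.77.

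The genes whose main TSS was most like each member over the 14 libraries were found among 2064 other genes with a mean of at least 10 RPM, by Pearson's r of log2(RPM + 1). The libraries share 5 groups, so r mostly reflects group levels and is given without a test. For Fth1 they were Ebf1 (r = 0.96), Pla2g16 (0.92) and Ifitm2 (0.86), each highest in nerve, where the means were 52.2, 386 and 521 RPM against 0.0065, 2.08 and 18.7 RPM in control cells. For Nfe2l2 they were Borcs8 (0.90), Palm (0.89) and Wdfy1 (0.87), each lowest in nerve, at means of 42.6, 10.1 and 38.3 RPM, and highest in ΔSOX10 cells, at 118, 60.4 and 128 RPM. By rank correlation, only Ebf1 stayed among the nearest 3 of Fth1, and none of the 3 genes stayed for Nfe2l2.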

How the data were processed

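Per the labels and the paper's methods, the authors trimmed reads with cutadapt 1.14, mapped them to rn5 with STAR 2.5.2a, handled them with SAMtools 1.9, clustered read starts with Paraclu and counted them with featureCounts (Subread 1.6.1). The deposited values are RPM per TSS and library, for TSSs within 1 kb of an H3K4me3 peak that overlaps a SOX10 peak in nerve. The authors' log2 fold changes and FDR p-values, also deposited, come from their comparisons and were not used.

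Steps of 1 read gave library totals and whole reads for all values checked (within 0.05 of a read). Nerve replicate 2 had few low values, but those checked were whole reads as well (100%). In both parental libraries and clones 1-1 and 1-2, 8.59% to 9.35% of values were rounded to 3 digits by the deposit, so their reads are approximate, the Nfe2l2 main TSS among them.

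Each comparison used its own 6 libraries. Differences of log2(RPM + 1) came from limma 3.58.1 (trend) under R 4.3.3, for TSSs with more than 1 RPM in 2 or more libraries, and p-values were Benjamini-Hochberg adjusted over every TSS tested (threshold 0.05). The members and lists were chosen with earlier results of these data known. Named genes are the members, list genes called at their main TSS (at most the 8 largest per direction), the 3 genes most like each member, and Sox10. Genes named beside them for contrast, Hmox1 with cAMP, Mafk, Gsk3b, and Prdx1 and Gstp1 in S16 cells, were added after their values were seen. Among the alternatives, the recovered reads were tested with DESeq2 1.42.0 and edgeR 4.0.16. Values are means ± SD. Nerve and cultures were not tested against each other. No library was left out.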

Additional observations from a re-analysis of the deposited data

Results flagged for a closer look

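In the 4 ΔSOX10 clones, 44 values were examined for a library far from the others, and 5 stood apart. Chance flags about 1 in 20 such groups, and the Fth1 values are not independent of each other. Where the other 3 clones all held 0, any reads in 1 clone would be flagged, so that rate does not hold there. Clone 2-2 stood apart at the main Fth1 TSS, at 27307 RPM against 13651 to 14022 RPM in the other 3 clones. It stood apart likewise in the sum of all Fth1 TSSs, at 27916 RPM against 13925 to 14349 RPM. At the TSS 2101 bp downstream, clone 2-2 held 2.62 RPM against 0.301 to 0.61 RPM, and at the TSS 184 bp upstream 2.79 RPM against 0. At the downstream Nfe2l2 TSS, clone 1-1 held 0.408 RPM and the other clones 0. The main Nfe2l2 TSS, at 117 RPM in clone 2-2, did not stand apart.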

How the results depend on the processing

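The log2 differences of the main Fth1 and Nfe2l2 TSSs kept their direction in every alternative run. With cAMP they ranged from -0.18 to -0.0552 for Fth1 and from 0.80 to 1.01 for Nfe2l2, and in ΔSOX10 cells from 0.78 to 1.26 and from 0.82 to 1.34. The value of -0.0552 belongs to the sum of the 11 downstream Fth1 TSSs in place of the main TSS, added after seeing the data, as was the ratio of means. The downstream Nfe2l2 TSS, at 0 with cAMP, differed by -4.28 with a pseudocount of 0.1, by -0.46 with 5, by -9.91 with edgeR and by -9.45 with DESeq2. Its size is thus set by the pseudocount or prior, and only its bound was given. A mean of at least 5 RPM removed it.

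Which member TSSs limma or another tool called did depend on the setting. Since the genes were chosen on these values, nothing is read from how often they were called. The main Nfe2l2 TSS was called in 17 of 17 alternatives with cAMP and in 11 of 18 in S16 cells. The main Fth1 TSS, not called in either comparison as reported, was called lower with cAMP in 4 of 17 and higher in S16 cells in 5 of 18, among them TMM scaling and the set without clone 2-2.

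Over all TSSs, one model of 14 libraries called 288 lower with cAMP, against 452. A mean of at least 5 RPM called 166 lower in ΔSOX10 cells, against 254, and DESeq2 called 111 higher, against 64. Without a parental library (the other then assumed to vary like the clones) the S16 counts fell furthest, to 36 higher and 71 lower without the first and 28 and 74 without the second, and over all leave-one-out sets they ranged from 28 to 55 higher and from 71 to 265 lower. edgeR on recovered reads called 425 higher and 353 lower with cAMP, and 48 and 190 in S16 cells. Over the 4 lists, genes called higher with cAMP numbered 2 without the filter and 1 in one model of 14 libraries, against 4, and between 2 and 3 with a library left out. Those called lower numbered 3 in the one model, against 6. In ΔSOX10 cells, between 2 and 5 list genes were called higher and between 1 and 2 lower with a library left out, and 1 lower with the clones labelled 2-1 and 2-2 alone, where Txnrd1 and Ugdh lost their calls. None of the list genes called in a comparison changed direction there, and the other list genes were not followed gene by gene. The cause of these changes was not tested.

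Control and cAMP libraries share replicate numbers. Same-numbered libraries deviated together with correlations of 0.0294, 0.0075 and 0.0379, and those of different number with correlations from -0.051 to 0.0213. With so few libraries per group, these values cannot decide whether the numbers pair them. With the number as a replicate block, 553 TSSs were called higher and 467 lower, and the Nfe2l2 difference stayed at 0.89. Depth limits the weakest Fth1 TSSs, with as few as 1 read in a library, and 2 nerves and 2 parental libraries limit every spread given for them.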

Other observations

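The main TSS of most NRF2 target genes was lowest in nerve, as for Nfe2l2 itself. Both nerves lay below all 12 culture libraries at 5 of 7 listed NRF2 targets and 3 of 4 other antioxidant enzymes, where 33.4% of all 2993 genes did so. Nqo1 stood at 38.3 and 43.1 RPM in nerve against 69.1 to 809 RPM in the cultures. Ugdh stood at 4.21 and 7.76 RPM against 45.6 to 188 RPM, and Prdx1 at 641 and 754 RPM against 1323 to 2613 RPM. Taldo1 and Gstp1 lay within the range of the cultures. Fth1, itself a known NRF2 target, lay above all 12 cultures in nerve, as did 7.82% of all genes. Among 9 iron handling genes, Isca2 was above all cultures in nerve (117 and 129 RPM against 42.7 to 89.8 RPM), Pcbp2 and Hmox2 were below, and the other 6 were within their range. The genes were picked after their values were seen, the primary cell libraries came from another instrument, and these orders were not tested.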
